A study of Mus musculus with 6 samples.

Results

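The erythroid program genes examined here were 10 genes that mark and build red blood cells, namely Gata1, Klf1, Epor, Car1, Car2, Ermap, Rhd, Tfrc, Slc4a1 and Alas2. They were taken by name, through probe sets whose platform annotation gave exactly 1 gene symbol. They had 135 such probe sets, and all 10 were measured, out of 20059 genes in all. The samples were 3 wild-type and 3 Dnmt3a+/- preparations of KLS cells, that is marrow cells with Kit and Sca-1 but no mature lineage markers on their surface, among them the blood stem cells. Dnmt3a+/- cells have 1 intact and 1 disrupted copy of Dnmt3a, an enzyme that places new DNA methylation, and no treatment was listed for either genotype. Strain, age, the design of the disrupted allele and any pooling of animals are unknown here. No label ties the 3 samples of a genotype to different animals, so each p-value covers just the variation among these preparations, which may be technical.

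A red cell is made when a progenitor comes under the control of the transcription factors Gata1 and Klf1 and survives through the erythropoietin receptor, Epor. It then takes up iron through the transferrin receptor, Tfrc, makes haem with Alas2 as the first enzyme of the erythroid route, and fills with haemoglobin. Its membrane gains the anion exchanger Slc4a1 (band 3), the Rh protein Rhd and Ermap, and its cytoplasm gains the carbonic anhydrases Car1 and Car2, which interconvert carbon dioxide and bicarbonate. Much of this program lies downstream of KLS cells, where its genes are read at an early stage or in cells that have begun to leave the stem cell pool. In a bulk sample, fewer cells of a type and less RNA per cell cannot be told apart.

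Gata1 binds DNA at GATA letters and is known for acting on many genes of this set, so the stretches before the start sites that hold such letters are shown first. RefSeq's promoter table (GRCm38.p6) had entries of 300 bases, 250 before to 50 after a start, for 7 of the 10 members. Those of Klf1, Epor, Ermap, Rhd and Alas2 held AGATAA or TGATAA on either strand, as did 18.6% of the 32841 promoters searched. The 120 bases before each start are printed 5′ to 3′ on the gene's strand, with the GATA match in capitals (TTATCT and TTATCA are AGATAA and TGATAA read on the other strand).
Klf1, plus strand, chr8:84901862-84901981: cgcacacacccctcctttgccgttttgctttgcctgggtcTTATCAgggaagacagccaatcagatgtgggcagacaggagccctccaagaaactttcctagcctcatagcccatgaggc
Epor, minus strand, chr9:21963577-21963696: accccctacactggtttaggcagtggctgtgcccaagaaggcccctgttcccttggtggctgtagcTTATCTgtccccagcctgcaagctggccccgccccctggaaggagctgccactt
Ermap, minus strand, chr4:119189996-119190115: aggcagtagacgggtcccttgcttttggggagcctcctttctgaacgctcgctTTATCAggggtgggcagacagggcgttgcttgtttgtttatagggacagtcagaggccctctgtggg
Rhd, plus strand, chr4:134864416-134864535: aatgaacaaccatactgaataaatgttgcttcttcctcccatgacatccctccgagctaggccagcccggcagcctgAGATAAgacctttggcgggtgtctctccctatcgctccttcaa
Alas2, plus strand, chrX:150547297-150547416: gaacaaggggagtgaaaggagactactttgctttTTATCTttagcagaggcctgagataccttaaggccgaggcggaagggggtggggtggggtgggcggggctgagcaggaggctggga
Counted from the start site, the match began at -80 in Klf1, -54 in Epor, -67 in Ermap, -43 in Rhd and -86 in Alas2.

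The promoters of Gata1 and Tfrc held neither of these letters, and AGATAG and TGATAG (both strands) matched in 0 of the 7 members. They matched in 8.96% and 7.29% of all promoters. The letters CCNCNCCC, a loose form of the CACCC element that Klf1 reads, matched on either strand in Gata1, Epor, Rhd, Tfrc and Alas2 and in 49.5% of all promoters, while the strict CCACACCC matched in 0 of the 7 members and 3.56% of all. An E-box (CANNTG) with at most 20 bases between it and a GATA match was found in 1 of the 7 members, Klf1, and in 6.93% of all promoters. A match describes letters and is not a binding site shown by these data. Of the 5 genes printed, Ermap and Rhd had lower means in Dnmt3a+/- cells by about 0.3 on the log2 scale, whereas Klf1, Epor and Alas2 had mean differences between -0.05 and 0.13.

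None of the red cell genes passed the test between genotypes. The 3 differences farthest from 0 were those of Car1, Rhd and Ermap, each with the lower mean in Dnmt3a+/- KLS cells. That of Rhd rested on 2 of its probe sets, as given below. The Dnmt3a+/- mean was lower for 7 of the 10 genes, where 54.3% of all genes were lower. The median log2 difference (Dnmt3a+/- minus wild-type) was -0.12, against -0.02 over all genes. The differences ran from -0.78 for Car1 to 0.15 for Slc4a1. No member passed over all genes (limma, 0 of 10 at adjusted p 0.05, as for 0% of all 20059 genes, of which 1502 had an unadjusted p under 0.05). At an unadjusted p under 0.05 there were 2 members, Car1 and Rhd, both lower, where 4.57% of all genes were lower at that p and 2.92% higher. The genotypes did not overlap in 2 members, Rhd on the lower side (as in 9.05% of all genes) and Slc4a1 on the higher side (6.74% of all genes). The adjusted p-values of the members ran from 0.631 to 0.972.

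**Figure D1:**
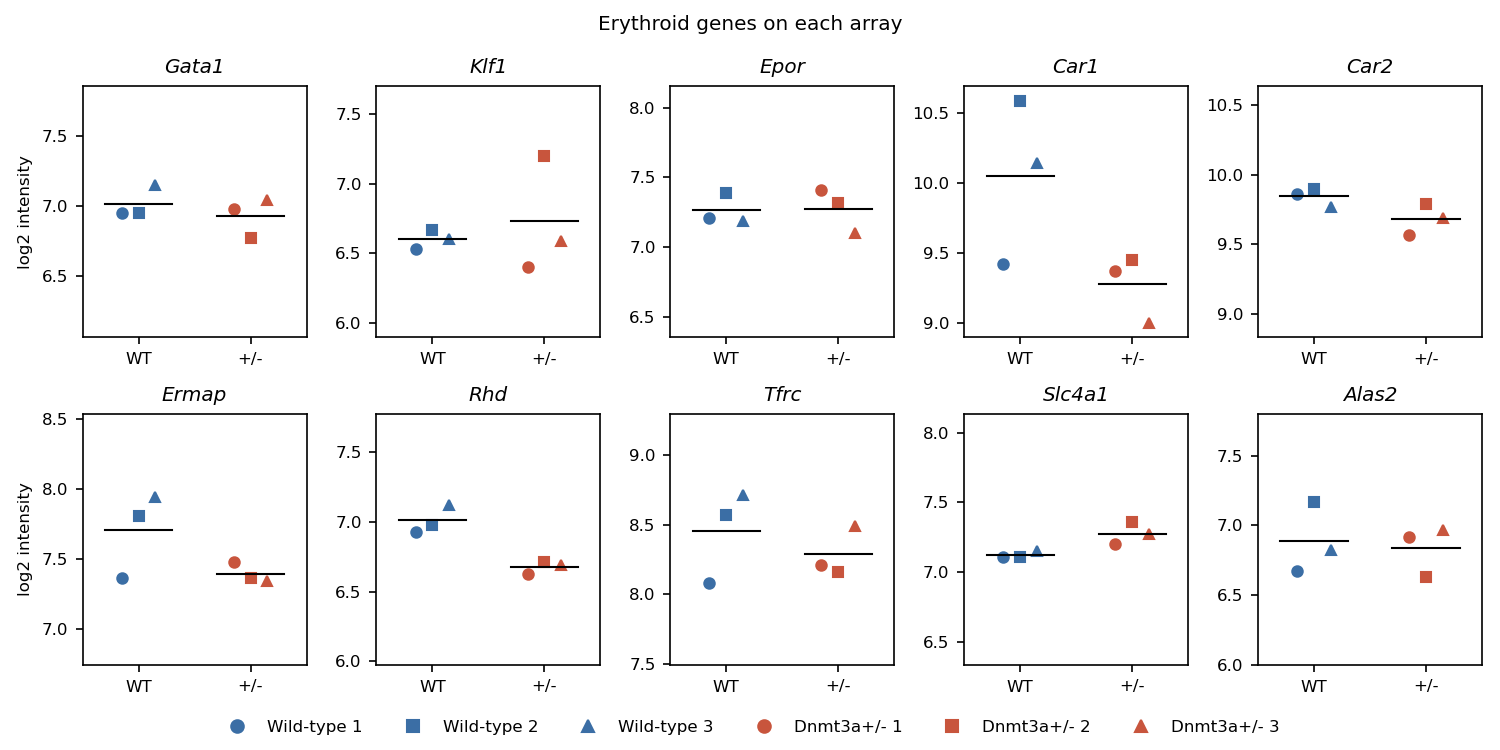
Log2 intensity of the 10 erythroid genes on each array, with a line at each genotype's mean (n = 3) and the same length of axis in every panel. Car1, Ermap and Tfrc were lowest among the wild-type arrays on replicate 1, and only Rhd and Slc4a1 separated the genotypes.

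Of the regulators, Gata1, the master transcription factor of red cells and platelets, read 6.95, 6.95 and 7.15 on the wild-type arrays and 6.98, 6.77 and 7.04 on the Dnmt3a+/- arrays. The genotypes overlapped, with a log2 difference of -0.09 (SE 0.12, adjusted p = 0.806). Klf1, the factor that switches on adult globin and membrane genes, read 6.53, 6.67 and 6.60 in wild-type against 6.40, 7.20 and 6.59 in Dnmt3a+/- cells. Its single high value was that of Dnmt3a+/- replicate 2. The log2 difference was 0.13 (SE 0.20) with that array and -0.10 without it. Epor, through which erythropoietin keeps progenitors alive, read 7.21, 7.39 and 7.19 in wild-type against 7.41, 7.32 and 7.10 in Dnmt3a+/- cells. Its groups covered nearly the same range, and the 95% confidence interval of the log2 difference was -0.28 to 0.30.

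Car1, the carbonic anhydrase of the red cell cytoplasm and an early gene of committed erythroid progenitors, had the largest difference of the set. Its log2 values were 9.42, 10.59 and 10.14 in wild-type against 9.37, 9.45 and 9.0 in Dnmt3a+/- cells. Wild-type replicates 2 and 3 stood above all others, while wild-type replicate 1 lay among the Dnmt3a+/- arrays, just under replicate 2. The mean went from 10.05 ± 0.59 in wild-type to 9.27 ± 0.24 in Dnmt3a+/- cells (SD, n = 3). This log2 difference, -0.78 (SE 0.28), had a 95% confidence interval of -1.42 to -0.13 and is a fold of 0.584, and 0.184% of all genes had a more negative difference. It did not pass over all genes (limma, adjusted p = 0.631), and the exact two-sided permutation p was 0.2, where 3 against 3 arrays cannot go below 0.1. The difference was -1.09 without wild-type replicate 1, -0.51 without wild-type replicate 2 and -0.86 without Dnmt3a+/- replicate 2.

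Car2, the second red cell carbonic anhydrase, which many other cells also use, read 9.86, 9.90 and 9.77 in wild-type against 9.57, 9.79 and 9.69 in Dnmt3a+/- cells. The groups overlapped only by Dnmt3a+/- replicate 2, which lay above wild-type replicate 3. The log2 difference was -0.16 (SE 0.11, adjusted p = 0.683), or a fold of 0.898. The other carbonic anhydrases, most of them enzymes of other tissues, had a median of 0.05 over 14 genes, of which 4 had a lower and 10 a higher mean. None of the 14 had an unadjusted p under 0.05, where 4.57% of all genes were lower and 2.92% higher at that p. The smallest p-values among them belonged to Car8 at 0.23 (SE 0.10), Car15 at -0.29 (SE 0.14) and Car12 at -0.21 (SE 0.13).

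**Figure D2:**
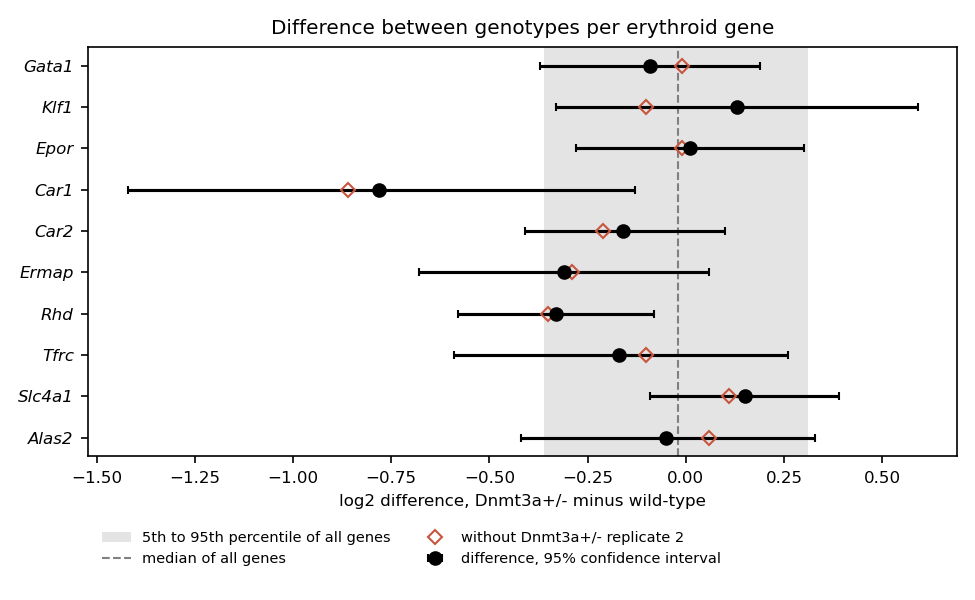
Log2 difference (Dnmt3a+/- minus wild-type) of each erythroid gene with its 95% confidence interval from limma (3 against 3 arrays), beside the 5th to 95th percentile of all genes (-0.36 to 0.31). Car1 lay outside that range, and open diamonds show the difference without Dnmt3a+/- replicate 2, which moved Klf1, Epor and Alas2 across 0.

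Among the membrane genes, Rhd, a subunit of the Rh complex, read 6.93, 6.98 and 7.12 in wild-type against 6.63, 6.71 and 6.69 in Dnmt3a+/- cells. Every Dnmt3a+/- array lay below every wild-type array. The log2 difference was -0.33 (SE 0.11, 95% confidence interval -0.58 to -0.08), a fold of 0.795, with an exact two-sided permutation p of 0.1, the smallest possible, and an adjusted p of 0.631 (limma). It stayed between -0.37 and -0.28 whichever array was left out. It rested, however, on 2 of the 10 Rhd probe sets above the level filter, whose values are given with the single probe sets.

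Ermap, a membrane protein with an immunoglobulin fold that carries the Scianna blood group in people, read 7.36, 7.81 and 7.94 in wild-type against 7.48, 7.36 and 7.34 in Dnmt3a+/- cells. As for Car1, wild-type replicates 2 and 3 were high and wild-type replicate 1 lay within the Dnmt3a+/- range. The log2 difference was -0.31 (SE 0.16, adjusted p = 0.634). It was -0.48 without wild-type replicate 1 and -0.19 without wild-type replicate 3. With the median in place of the mean of its probe sets it was -0.71, and without the level filter -0.52.

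Slc4a1, the chloride and bicarbonate exchanger that anchors the red cell skeleton, read 7.11, 7.11 and 7.15 in wild-type against 7.20, 7.36 and 7.27 in Dnmt3a+/- cells. All Dnmt3a+/- arrays were above all wild-type arrays, but by little, with a log2 difference of 0.15 (SE 0.10, 95% confidence interval -0.09 to 0.39). The exact permutation p was 0.1 and the adjusted p 0.672 (limma). The sign turned to -0.04 both without the level filter, which brings in the 11 of its 24 probe sets below it, and with the median in place of the mean of the 13 above it.

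Of the iron and haem genes, Tfrc, which imports transferrin-bound iron and is also used by other dividing cells, read 8.08, 8.57 and 8.71 in wild-type against 8.21, 8.16 and 8.49 in Dnmt3a+/- cells. Wild-type replicate 1 was again the lowest of its group and lay below all Dnmt3a+/- arrays. The log2 difference was -0.17 (SE 0.18, adjusted p = 0.759), and it was -0.35 without wild-type replicate 1 and -0.04 without wild-type replicate 3. Alas2, the haem enzyme used by erythroid cells, read 6.67, 7.17 and 6.82 in wild-type against 6.92, 6.63 and 6.97 in Dnmt3a+/- cells. The groups overlapped fully. The log2 difference of -0.05 (SE 0.16) became 0.10 without wild-type replicate 2 and 0.06 without Dnmt3a+/- replicate 2.

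The single probe sets show how evenly these differences were spread along each gene. Of the members' 135 probe sets, 103 lay above the level filter (a mean above log2 5.89, the median of all probe sets) and made up the gene values. The Dnmt3a+/- mean was lower in 62 of them, where 50.3% of all probe sets were lower, and the median difference was -0.11 (0.00 over all probe sets). In 15 of the 103 every Dnmt3a+/- array was below every wild-type array (6.1% of all probe sets), and in 6 above (6.31% of all). At unadjusted p under 0.05 (limma) there were 10 lower and 0 higher member probe sets, where the shares of all probe sets were 3.41% and 2.8%. None passed over all 628415 probe sets (0% of all did). Of these 628415, only 221209 carried 1 gene symbol, as every member probe set did. The shares over those alone were not counted, so the background given is not a like one. The 10 comprised 2 of Car1, 1 of Car2, 2 of Ermap, 2 of Rhd and 3 of Tfrc, and probe sets of 1 gene read the same transcript and are not independent.

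Car1 was even in sign but not in size, with all 4 of its probe sets above the filter lower in Dnmt3a+/- cells, at -1.16, -0.95, -0.53 and -0.47. Probe sets 4723026 (-0.53) and 4650451 (-0.47, the brightest) overlapped between the genotypes. Probe set 4720173, the lowest, read 8.98, 10.42 and 10.29 in wild-type against 8.91, 8.59 and 8.71 in Dnmt3a+/- cells, without overlap. Probe set 4932311 did not overlap either, at 8.92, 10.23 and 9.71 against 8.91, 8.51 and 8.59. In both, wild-type replicate 1 lay just above Dnmt3a+/- replicate 1, so that the gap between genotypes was set by the other wild-type arrays.

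Rhd was uneven. Probe set 4476760 read 8.20, 7.05 and 7.76 in wild-type against 6.13, 5.10 and 6.03 in Dnmt3a+/- cells, a difference of -1.92. Probe set 5533219 read 7.53, 7.41 and 7.40 in wild-type against 6.21, 4.86 and 6.91 in Dnmt3a+/- cells, a difference of -1.45. The other 8 ran from -0.44 to 0.35, and the brightest, 5119307, was higher on every Dnmt3a+/- array at 0.29. Without the 2 lowest probe sets, a setting chosen after their values were seen, the Rhd difference was 0.01 (SE 0.15). Where these probe sets lie in the gene is not known here.

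Ermap had 9 of 13 probe sets lower, led by 5017625 (7.45, 7.80 and 8.17 in wild-type, 6.58, 6.82 and 6.91 in Dnmt3a+/- cells). Below the filter were 3 further probe sets, 4716622, 5371396 and 5453920, with differences of -2.10, -2.09 and -0.15 that do not enter the gene value. The first of them read 5.83, 7.04 and 7.04 in wild-type against 3.65, 4.86 and 5.11 in Dnmt3a+/- cells. Tfrc was mixed, with 11 of 18 above the filter lower and a range from -0.84 to 0.71. Of its 5 below the filter, 4 were lower, 2 of them without overlap (-1.36 and -0.29). Slc4a1 had 10 of 13 higher above the filter, 3 of them without overlap (6.31% of all probe sets above the filter were). Of the 11 below it, 9 were lower, 3 of them without overlap (-1.07, -0.58 and -0.55). The share over all probe sets below the filter was not counted.

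**Figure D3:**
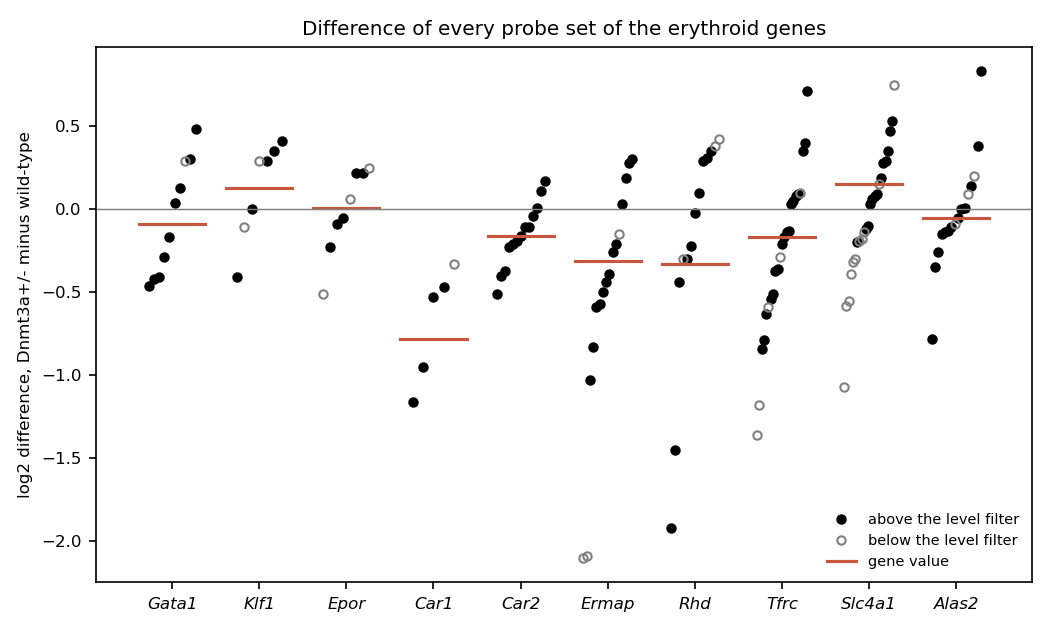
Log2 difference (Dnmt3a+/- minus wild-type, 3 against 3 arrays) of every probe set of the erythroid genes, filled above the level filter and open below it, with the gene value as a line. The Car1 probe sets were all below 0, whereas 2 Rhd probe sets at -1.92 and -1.45 stood apart from the other 8 above the filter.

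The members did not vary as 1 block from array to array. Over the 6 arrays, Pearson's r between members was positive in 26 of 45 pairs, with a median of 0.11 and a range from -0.71 to 0.88. With each genotype's mean removed it was positive in 28 of 45 pairs, with a median of 0.15. These correlations describe 6 points that share normalization and, for members of 1 array, the same RNA. Car1 and Ermap (r = 0.88, and 0.78 within genotypes) and Ermap and Tfrc (0.80 both ways) varied alike. Klf1 and Slc4a1 formed another pair (0.69, and 0.94 within genotypes), while Gata1 and Klf1 ran opposite (-0.71, and -0.69 within genotypes). Klf1 and Slc4a1 were each highest on Dnmt3a+/- replicate 2. On that array the dimmest genes had a median of 0.20 relative to the wild-type mean. The wild-type means of Klf1 (6.60) and Slc4a1 (7.12) lay below that of all genes (7.55). Gata1, also below it at 7.02, was lowest on that array (6.77). The part of this array's shift in these correlations was not tested.

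The mean of the 10 genes, each centred on its own mean, was -0.10, 0.20 and 0.14 on the wild-type arrays and -0.10, -0.04 and -0.10 on the Dnmt3a+/- arrays. Wild-type replicates 2 and 3 were thus the arrays with high erythroid values, and on this mean, in which Car1 weighs most, wild-type replicate 1 lay at the level of the Dnmt3a+/- arrays. The median deviation of the members from the wild-type mean was -0.07 on wild-type replicate 1 and -0.21, -0.25 and -0.08 on the Dnmt3a+/- arrays. For Rhd, Car2, Slc4a1 and Tfrc, wild-type replicate 1 lay outside the Dnmt3a+/- range. The genes outside the set whose values followed this mean most closely over the 6 arrays were Cyp20a1 (r = 0.99), Morc3 (0.986), Coq7 (0.985), Oasl1 (0.984) and Zzz3 (0.984). They were the 5 highest of the 20059 genes, members, predicted genes and odour receptor genes left out. With 6 points and so many genes, values of r this high can arise by chance, and no test was made. The log2 differences of these 5 genes ran from -0.28 for Morc3 to -0.22 for Coq7. The mean they were chosen to follow holds the members' own difference between genotypes, so negative differences follow in part from the choice.

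The wider red cell pathway was examined through 7 further lists, none of whose genes passed over all genes (limma, 0 members of any list at adjusted p 0.05). Transcription factors and cofactors that work with or beside Gata1 had a median of -0.09 over 16 genes. The mean was lower for 15 of the 16, but for 12 after cyclic loess normalization (median -0.06), so part of this count depends on the scaling. Nfe2, a factor of globin and platelet genes, read 9.08, 9.0 and 9.10 in wild-type against 8.95, 8.69 and 8.83 in Dnmt3a+/- cells, without overlap (difference -0.24, SE 0.11). Ldb1, which bridges Gata1 and Tal1 complexes, also did not overlap, at -0.16 (SE 0.11), and Myb stood at -0.17 (SE 0.11). Gata2, which precedes Gata1 in progenitors, had a difference of 0.06 (SE 0.12). A total of 4 of the 16 were lower without overlap (9.05% of all genes were) and 0 had an unadjusted p under 0.05 (4.57% of all genes lower and 2.92% higher).

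Genes of erythropoietin signalling had a median of -0.13 over 13 genes, 8 of them with a lower mean. That median was -0.02 with the median of probe sets and -0.03 with array weights, close to that of all genes. Jak2, the kinase bound to Epor, read 8.16, 8.13 and 8.08 in wild-type against 7.86, 7.61 and 7.70 in Dnmt3a+/- cells. The arrays did not overlap, and the log2 difference was -0.40 (SE 0.11, adjusted p = 0.631). Stat5b, a factor that Jak2 activates, was also lower without overlap at -0.22 (SE 0.10), as was Inpp5d at -0.21 (SE 0.10). Without overlap, 3 of the 13 were lower and 1 higher, where 9.05% of all genes were lower and 6.74% higher. Socs2, which Stat5 induces and which restrains cytokine signals, was on the other side, at 6.84, 7.07 and 7.01 in wild-type against 7.27, 7.51 and 7.35 in Dnmt3a+/- cells (difference 0.40, SE 0.12, adjusted p = 0.631). Cish, another Stat5 target, overlapped at 0.08 (SE 0.14). Jak2 and Socs2 were the members of this list with an unadjusted p under 0.05, 1 on each side, where 4.57% of all genes were lower and 2.92% higher at that p. Jak2, Stat5b and Socs2 also serve other cytokine receptors of these cells.

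The haem synthesis list had a median of -0.01 over 15 genes, with 9 lower, but 7 lower and a median of 0.01 after cyclic loess. Ppox (-0.18, SE 0.11), Cpox (-0.23, SE 0.15) and the mitochondrial transporter Abcb10 (-0.13, SE 0.11) had its smallest p-values. Iron handling had a median of -0.02 over 11 genes, with the iron importer of mitochondria Slc25a37 at -0.20 (SE 0.13), the ferritin receptor Ncoa4 at -0.29 (SE 0.20) and the iron reductase Steap3 at 0.14 (SE 0.11).

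The red cell membrane list was split, with 7 of 14 genes on either side and a median of 0.00. Cldn13, a claudin of mouse erythroid cells, was lowest at 6.20, 6.44 and 6.79 in wild-type against 6.25, 5.81 and 5.88 in Dnmt3a+/- cells (difference -0.50, SE 0.18, unadjusted p = 0.0278). Wild-type replicate 1 lay just below Dnmt3a+/- replicate 1, so the groups overlapped. Icam4 (0.24, SE 0.13), Epb42 (0.20, SE 0.11) and Dmtn (0.16, SE 0.10) were higher without overlap, as were 6.74% of all genes. On the lower side 0 of the 14 did not overlap (9.05% of all genes). The Rh partner Rhag read 7.19, 7.31 and 7.39 in wild-type against 6.48, 7.50 and 6.82 in Dnmt3a+/- cells. Its difference was -0.36 (SE 0.24), and -0.65 without Dnmt3a+/- replicate 2.

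Globins could be read only in part, since 3 of the 10 genes listed had probe sets naming them alone above the filter. Hbb-b1, an adult beta-globin gene with a near-identical neighbour, read 8.45, 9.40 and 8.87 in wild-type against 8.67, 8.93 and 9.38 in Dnmt3a+/- cells. The genotypes overlapped, with a difference of 0.09 (SE 0.26). Wild-type replicate 2 was high in Hbb-b1 and Car1 alike, but Dnmt3a+/- replicate 3 was high in Hbb-b1 and lowest of all in Car1. The embryonic Hba-x (0.04, SE 0.13) and Hbb-y (0.00, SE 0.14) lay near 0. The adult alpha-globin genes were not analysed here.

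**Figure D4:**
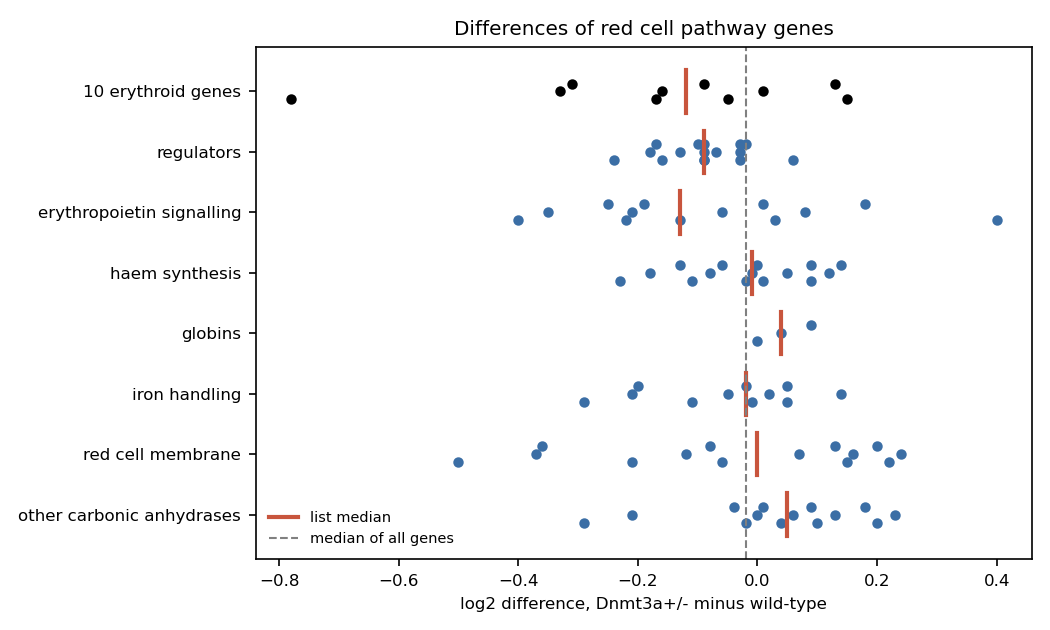
Log2 differences (Dnmt3a+/- minus wild-type, 3 against 3 arrays) of the 10 erythroid genes and of 7 lists of related genes, 1 point per gene, with the list medians in red and the median of all genes (-0.02) as a dashed line. The medians lay between -0.13 and 0.05, and Car1, at -0.78, was the gene farthest from 0.

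Markers of other cells show what else varied between the arrays. Kit read 10.74, 10.80 and 10.68 in wild-type against 10.65, 10.63 and 10.59 in Dnmt3a+/- cells. It was lower without overlap, as were 9.05% of all genes, by a difference of -0.11 (SE 0.10, limma adjusted p = 0.718). Ly6a, which encodes Sca-1, read 8.30 to 8.66 over all arrays, with overlap. The KLS marker list had a median of -0.12, like the erythroid genes, and 10 of 11 genes with a lower Dnmt3a+/- mean (9 of 11 and -0.08 after cyclic loess). Its mean level was 9.13 to 9.20 on the wild-type and 9.02 to 9.03 on the Dnmt3a+/- arrays, and Flt3 (-0.32, SE 0.16), Cd48 (-0.27, SE 0.17) and Cd34 (-0.23, SE 0.13) had its smallest p-values. Neutrophil genes were highest on Dnmt3a+/- replicate 1 (mean level 9.62) and lowest on wild-type replicate 2 (8.63), the array highest in Car1, with 8.99 to 9.18 on the others. Of 14 measured, 11 had a higher and 3 a lower mean in Dnmt3a+/- cells, with Retnlg at 0.98 (SE 0.22), Mmp8 at 0.64 (SE 0.20) and Fcnb at -0.26 (SE 0.14).

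Platelet genes share regulators with the erythroid set and had a median of 0.05 over 14 genes, at mean levels of 6.99 to 7.24 in wild-type against 6.96 to 7.39 in Dnmt3a+/- cells. Pf4, which defines megakaryocytes, ranged widely within both genotypes, at 7.67, 8.23 and 7.01 in wild-type against 8.07, 8.36 and 6.40 in Dnmt3a+/- cells. Gp1bb (0.33, SE 0.14) and Gp6 (0.26, SE 0.12) were higher without overlap, as were 6.74% of all genes. Treml1 stood at 0.25 (SE 0.15) and Itga2b at -0.15 (SE 0.22). Mast cell and basophil genes had a median of 0.04, with 6 of 8 higher, at mean levels of 7.07 to 7.26 in wild-type against 7.05 to 7.36 in Dnmt3a+/- cells (Mcpt8 0.45, SE 0.16, Tpsb2 0.12, SE 0.13, and Cpa3 -0.34, SE 0.26).

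For monocyte and macrophage genes the median was 0.17, with 7 of 10 higher, at mean levels of 7.50 to 7.78 in wild-type against 7.57 to 7.81 in Dnmt3a+/- cells. Csf1r, the receptor that defines this lineage, stood at -0.73 (SE 0.19), and Adgre1 (0.42, SE 0.15) and Vcam1 (0.78, SE 0.29) on the other side. B cell genes had a median of 0.01, with 5 of 9 higher, and mean levels of 6.94 to 7.26 against 7.10 to 7.42, with Cd22 at 0.51 (SE 0.14), Cd79a at 0.85 (SE 0.33) and Igll1 at 0.21 (SE 0.22). For T and NK genes the median was 0.10, with 5 of 9 higher, and the mean levels were 6.94 to 7.16 against 7.02 to 7.09, Klrd1 standing at -0.71 (SE 0.17), Ncr1 at 0.45 (SE 0.18) and Cd3e at 0.33 (SE 0.12). None of these marker genes passed over all genes (limma, smallest adjusted p 0.631). The part of these other cells in the erythroid values was not tested.

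**Figure D5:**
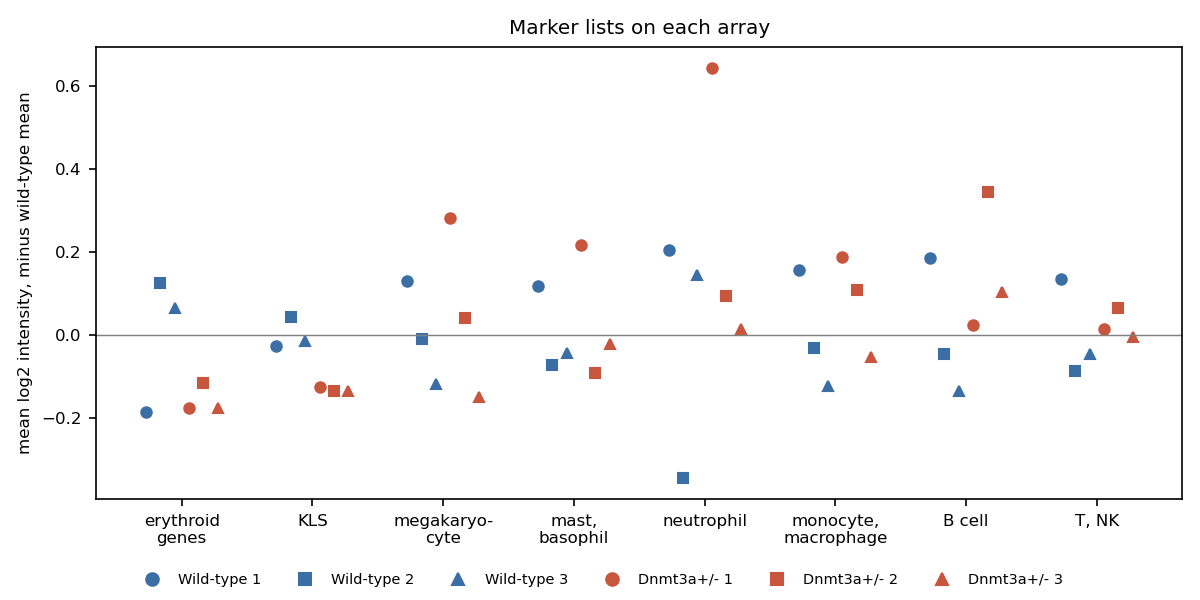
Mean log2 intensity of each marker list on each array, minus the mean of the wild-type arrays. The erythroid genes were high on wild-type replicates 2 and 3, while neutrophil genes spanned the widest range, from wild-type replicate 2 (a mean level of 8.63) to Dnmt3a+/- replicate 1 (9.62).

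Dnmt3a was 8.57 ± 0.11 in wild-type against 8.26 ± 0.10 in Dnmt3a+/- cells (SD, n = 3). It was lower without overlap, as were 9.05% of all genes, by a log2 difference of -0.31 (SE 0.12, fold 0.809). It did not pass over all genes (limma, adjusted p = 0.631). Dnmt3a+/- replicate 2 stood apart from the other arrays, with a mean correlation over genes of 0.904 with the others, where the other 5 had 0.938 to 0.949. On it, the brightest 10% of genes had a median of -0.29 and the dimmest 10% one of 0.20 relative to the wild-type mean. The same direction was seen, by less, on Dnmt3a+/- replicates 1 (-0.08 and 0.13) and 3 (-0.04 and 0.05). Wild-type replicate 1 also had it (-0.05 and 0.05), and wild-type replicates 2 and 3 had the opposite. Leaving out Dnmt3a+/- replicate 2 thus did not remove this shift. It gave a member median of -0.10, with Car1 at -0.86, Rhd at -0.35 and Ermap at -0.29.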

How the data were processed

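RNA of 6 KLS samples (3 wild-type, 3 Dnmt3a+/-) was amplified and hybridised to 1-colour arrays, per the labels' protocols. The authors deposited 1 intensity value per probe set and array, made with RMA in Partek, per the submitters' processing notes, with versions, settings and genome build not given in the sources used here. The values ran from 1.84 to 22239 with array medians of 59.8 to 61.6, so they were linear, and log2 was taken with no pseudocount. Since the arrays had nearly 1 distribution, a shift common to most genes would be hidden. The number of arrays limits the precision, as arrays have no counting depth.

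Of 1256831 probe sets, 318760 had 1 symbol in the platform annotation, which can be old, 6684 had several and 931387 none. Symbols were updated through the RefSeq table of GRCm38.p6, and no member needed it. For each gene, log2 values were averaged over its probe sets with a mean above the median of all probe sets (5.89). The genotypes were compared per gene and per probe set by limma (3.58.1, under R 4.3.3, with lmFit and eBayes and no covariate), with Benjamini-Hochberg adjustment over all of them, after a test on simulated data. The standard error (SE) of a difference is that of the fit. For single genes an exact permutation test, two-sided, was added.

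The members and the lists were chosen with earlier results of these data known. The text names all members, the 3 genes of smallest p in each list, some defining markers and the 5 genes most like the members' mean, and further list genes as examples chosen after their values were seen. Alternatives changed the filter, the summary of probe sets, the scaling, a pseudocount of 16, the variance model, array weights, a replicate block and each array left out. Promoter sequences are from RefSeq.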

Additional observations from a re-analysis of the deposited data

How the results depend on the processing

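With 15 alternatives to the main setting, 0 members and 0 genes passed at adjusted p 0.05 (limma) in any of them. The members' adjusted p-values ran from 0.324 to 0.995 in 149 fits, Klf1 having no probe set left with the filter at the 75th percentile. The median difference of the members stayed between -0.16 and -0.06. The number of members with a lower mean, 7 in the main setting, depended on the summary. It was 10 with the median of probe sets, 9 without the filter and 6 without wild-type replicate 2. The count of genes at unadjusted p under 0.05 was 1502, but 2593 with array weights, 925 without wild-type replicate 2 and 989 without wild-type replicate 3, and the cause was not tested. Gata1, Car1, Car2, Ermap and Tfrc kept a negative difference in all 15. Rhd turned to 0.29 with the filter at the 75th percentile, which keeps 1 of its probe sets (5119307), and to 0.01 without its 2 lowest probe sets. Slc4a1 turned to -0.04 without the filter and to -0.04 with the median of probe sets. Klf1 turned to -0.01 with the median of probe sets and to -0.10 with array weights. Epor turned to -0.02 without the filter, -0.03 with the filter at the 75th percentile and -0.03 with the median of probe sets. With single arrays left out, Klf1 ran from -0.10 to 0.29, Epor from -0.05 to 0.10 and Alas2 from -0.16 to 0.10. Leaving out an array takes a residual degree of freedom, and why signs near 0 turned was not tested.

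The deviations of same-numbered arrays from their genotype means had correlations over genes of -0.05, -0.09 and 0.11. Between differently numbered arrays they ran from -0.17 to 0.17. Deviations from the mean of so few arrays constrain each other, so these values cannot decide whether the replicate numbers pair the arrays. With the replicate block the member median was -0.12, and 0 members passed, with Car1 at -0.78 (adjusted p = 0.714) and Rhd at -0.33 (adjusted p = 0.714); 1274 genes had an unadjusted p under 0.05.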
